A study of Mus musculus with 4 samples.

Results

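The respiratory chain of mitochondria was represented by 94 of the 49490 genes in the table. They were chosen by symbol, through patterns for the subunits of complexes I to V, and by a mean normalized count of at least 20 over the 4 libraries, the one measured value used in the choice. The patterns matched 104 symbols, and 10 fell under that mean, 3 of them (Cox7b2, Cox8b and Cox8c) with 0 in every library. Just inside the limit lay the pseudogene Atp5l-ps1 with a mean of 88.1 and Cox6b2 with 112, and just outside it Cox7a1 with 16.5 and Atp5l-ps2 with 10.8. Of the 94 members, 81 are encoded in the nucleus and 13 in the mitochondrial genome. By complex, 42 belong to complex I, 4 to complex II, 10 to complex III, 17 to complex IV and 21 to complex V. Ndufa4 was counted with complex IV, where its protein is now placed, and Atp5s, Atp5sl and 2 pseudogenes were counted with complex V by name. All 94 passed the filter on low values, which asked for a normalized count of at least 10 in at least 2 libraries.

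The libraries came from mouse CD8+ T cells of spleens and lymph nodes that had been activated in culture, as polyadenylated RNA. A WT group of 2 libraries carries floxed Irf8 alleles (Irf8fl/fl), and an Irf8 knockout group of 2 libraries is Irf8-/-. The sources used here do not give the Cre driver, the age of the mice or the means of activation, nor whether replicates are separate animals, so p-values describe the spread between these libraries only. Recovered depth over the genes in the table lay between 58899365 and 59724952 reads per library. The transcript of Irf8, an immune transcription factor, stood at 6364 and 6081 normalized counts (WT-labelled) and at 89508 and 90222 (knockout-labelled). It was thus 14.4-fold higher where the label says knockout (log2 fold change 3.85, SE 0.035, limma adjusted p = 4.32e-08), which goes against the label. The groups are therefore named by their labels alone, and each direction compares knockout-labelled with WT-labelled libraries.

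Markers of other cell types also differed between the groups. Of all genes tested, 19.9% were called higher and 13.4% lower. Of 12 T cell markers 11 fell and 0 rose, with a median log2 fold change of -0.61 and summed levels of 599986 to 602269 (labelled WT) and 420921 to 425401 (labelled knockout). Of 12 markers of plasmacytoid dendritic cells, the interferon-producing dendritic lineage, 11 rose and 0 fell, from summed levels of 20340 to 20785 to 278432 to 278889. Of 10 conventional dendritic cell markers 9 rose and 0 fell, with sums of 39460 to 40332 and then 439615 to 444334. B cell markers rose in 3 of 7 tested and fell in 0 (sums of 311 to 335 and 8430 to 8515), neutrophil markers rose in 6 of 6 (97.7 to 133 and 2219 to 2409), and macrophage markers rose in 1 and fell in 5 of 9 (5072 to 5102 and 12968 to 13136). NK cell markers rose in 0 and fell in 1 of 3 tested (1954 to 2103 and 1152 to 1181). In these lists 0 genes were at 0 in all 4 libraries. The part of these other cell types in the values below was not tested, and in bulk RNA fewer cells of a type cannot be told apart from less RNA per cell.

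The respiratory chain passes electrons from NADH (through complex I) and succinate (through complex II) to coenzyme Q, on to complex III, cytochrome c and complex IV, where oxygen is reduced, and complex V makes ATP from the proton gradient that complexes I, III and IV build. Most subunits are nuclear genes whose proteins are imported, while a small set of hydrophobic core subunits is transcribed from mitochondrial DNA, from long polycistronic precursors. T cells raise both respiration and glycolysis when they are activated.

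Nuclear and mitochondrial members leaned in different directions, and by small amounts. Of the 81 nuclear members 17 fell (21.0%), 3 rose (3.70%) and 61 did not pass the test. Of the 13 mitochondrial members 0 fell, 4 rose (30.8%) and 9 did not pass. Of genes with a mean of at least 1000, 24.1% were called lower and 21.8% higher, so the nuclear share of decreases was under theirs. All members together were called in 24 of 94 (25.5%), a smaller share than the 33.4% of all 18378 genes tested. Called decreases made up 18.1% of members (17 of 94) beside 13.4% of all genes, and called increases 7.45% (7 of 94) beside 19.9%. Of the 7739 genes with a mean of at least 1000, 89 of which are members, 24.1% were called lower and 21.8% higher, and the 89 hold all 24 calls, so among genes of high level the members' share was smaller in both directions. The median log2 fold change was -0.19 over the nuclear members and 0.15 over the mitochondrial members, beside 0.02 over all genes tested. Centring each library on its median lowered every log2 fold change by 0.30, to medians of -0.49, -0.15 and -0.28, so the sign of the mitochondrial median flips and every smaller increase below turns negative. Relative to the median of all genes, they lay at -0.21 and 0.13 under both scalings. A negative fold change was found in 69 of 81 nuclear members (85.2%), beside 48.1% of all genes tested and 53.7% of those with a mean of at least 1000.

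Values of the groups overlapped in 14 of 94 members, and the knockout-labelled libraries lay below the others in 61 and above them in 19, beside 32.3% and 36.5% of all genes in those directions. Without replicate 1 of the knockout-labelled libraries the members called were 1 higher and 2 lower, beside 7.39% and 3.78% of all genes, and without replicate 2 they were 3 higher and 2 lower, beside 7.12% and 3.43%, so calls were fewer among all genes too. Without replicate 1 of the WT-labelled libraries they were 13 higher and 61 lower, beside 22.5% and 15.0% of all genes, and without its replicate 2 they were 9 higher and 26 lower, beside 21.5% and 13.2% of all genes. With edgeR and TMM factors on recovered reads 8 members were higher and 24 lower, beside 20.1% and 14.4% of all genes. By the authors' deposited table, 9 members are higher and 23 lower in the knockout columns at an adjusted p under 0.05, beside 15.5% and 10.1% of the 21629 genes that have one there.

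**Figure D1:**
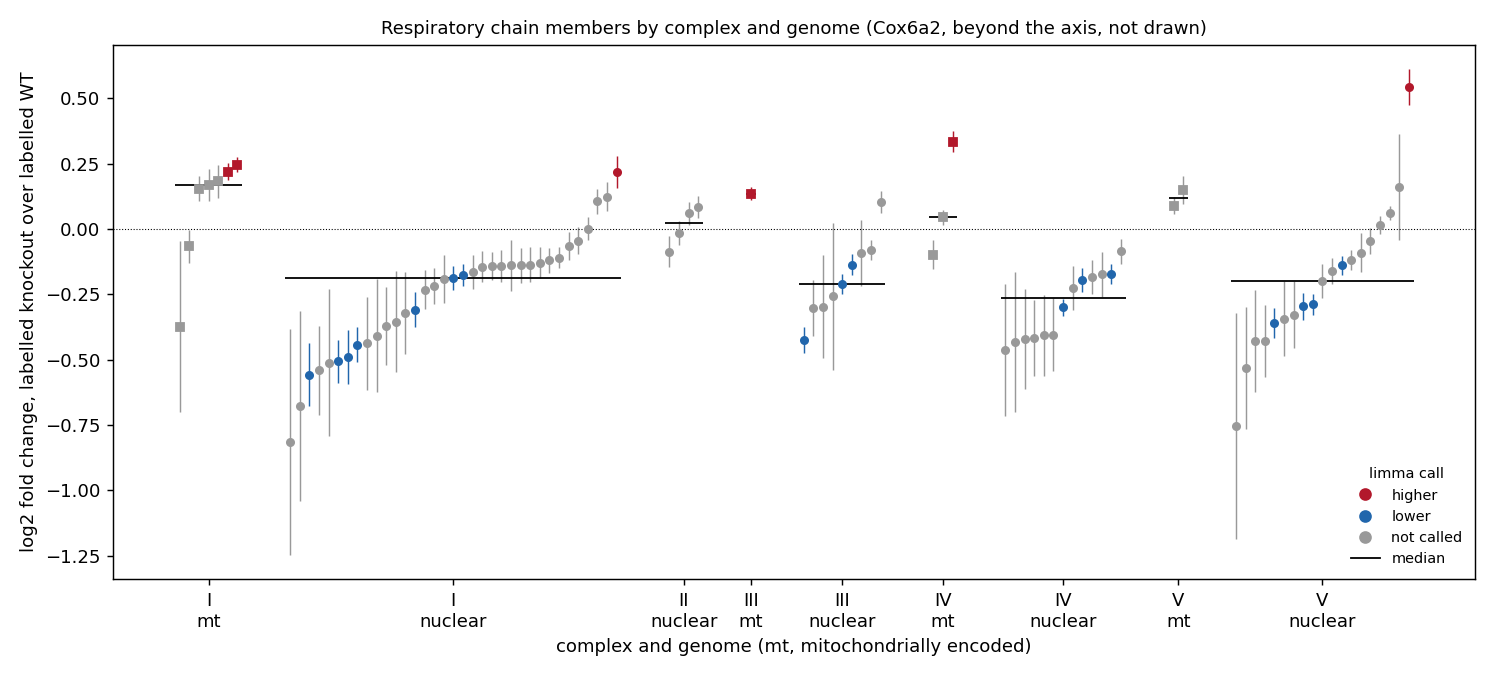
Log2 fold change of the knockout-labelled libraries over those labelled WT, with its standard error, for each member, grouped by complex and by genome and sorted within each group. Squares are mitochondrially encoded members, circles nuclear ones, and black lines group medians. Most nuclear members of complexes I, III, IV and V lie below 0 and most mitochondrial members above it (below it with median centring). Cox6a2, at 6.71, is beyond the axis but counts in the median.

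Most nuclear members, short ones above all, differed between the 2 libraries labelled WT. Of the 81 nuclear members 70 were higher in WT replicate 2 than in WT replicate 1, and 23 were at least 1.3-fold higher, while the knockout-labelled replicates stood that far apart in 1 member. Across the 81 nuclear members, which share their libraries, the Spearman correlation of transcript length with log2(WT replicate 2 over WT replicate 1) was -0.59, and with the same ratio of the knockout-labelled replicates 0.08. By length class (under 500, 500 to 700, 700 to 1000, 1000 to 2000 and over 2000 nt) the median of log2(WT replicate 2 over WT replicate 1) was 0.53, 0.28, 0.14, 0.06 and 0.06 in nuclear members, and 0.15, 0.10, 0.04, 0.0037 and -0.01 in all genes with a mean of at least 1000. The members thus lay above genes of like length in every class, which was not tested. Ndufa3, a complex I accessory subunit with a transcript of 515 nt, had 5423 and 11092 in the WT-labelled libraries against 4345 and 4478. Atp5k, the e subunit of ATP synthase, had 888 and 1997 against 847 and 737. Both have large negative fold changes (-0.81 and -0.75) that did not pass, with adjusted p of 0.273 and 0.269 by limma. Of the 23 members that WT replicate 2 held at least 1.3-fold higher, 1 was called, against 19 of the other 58. The gap between WT replicates enters the spread that the test divides by, so fewer calls among the 23 follow by construction.

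The difference between groups also followed length. The 11 nuclear members under 500 nt had a median log2 fold change of -0.43, the 25 between 500 and 700 nt -0.30, the 16 between 700 and 1000 nt -0.17, the 23 between 1000 and 2000 nt -0.13 and the 6 longer ones 0.05. All genes with a mean of at least 1000 had medians of -0.48, -0.30, -0.16, -0.05 and 0.01 in the same length classes, members included. The members' median was the lower one in the classes from 500 to 2000 nt, most clearly between 1000 and 2000 nt. Between 500 and 700 nt it was -0.303 against -0.296. It was the higher one under 500 and over 2000 nt. Without WT replicate 2 the nuclear members had medians of -0.16, -0.13, -0.09, -0.09 and 0.04, and their overall median was -0.10 in place of -0.19. Of the 24 calls, 23 were also made in the same direction without WT replicate 2, the exception being Uqcrc2 (adjusted p = 0.103 by limma). Without WT replicate 1, 22 of the 24 were, and Ndufs8 and Atp5g2 were lost (adjusted p = 0.0635 and 0.0512 by limma). In both fits the lone WT-labelled library was assumed to vary like the knockout-labelled pair. Far fewer members were called without either knockout-labelled library, as given above. Without WT replicate 2 the fold changes of 50 of the 81 nuclear members moved by over 1.5 times and those of Atp5g1, Sdhd, Uqcr11 and Uqcrq changed sign. Among the members called, Cox4i1, Ndufa13 and Ndufs6 moved that far, to -0.13, -0.32 and -0.37.

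**Figure D2:**
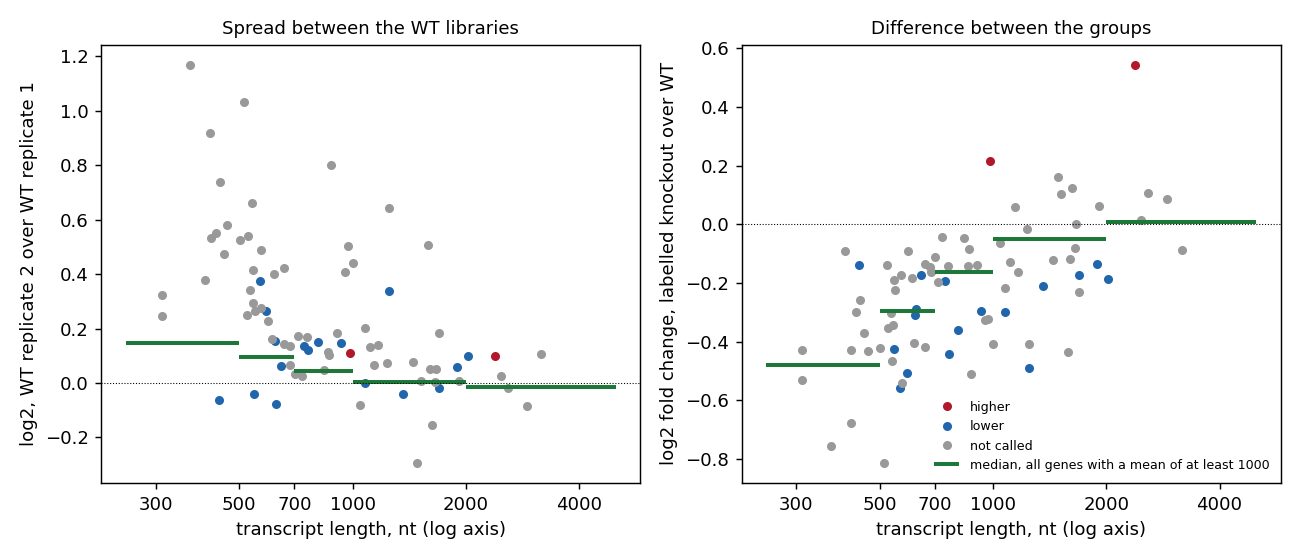
Nuclear members by transcript length in nt on a log axis, without Cox6a2. The left panel plots log2 of WT replicate 2 over WT replicate 1 and the right panel log2 of the knockout-labelled libraries over those labelled WT. Green bars are medians of all genes with a mean of at least 1000 in 5 length classes. In the left panel the shortest members reach above 1 while long ones lie near 0, and in the right panel short members lie lowest.

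Complex I oxidises NADH and pumps protons, and its core of subunits shared with bacteria is split between the genomes. Of the 7 nuclear core subunits 1 rose (14.3%), 1 fell (14.3%) and 5 did not pass, with a median of 0.002. Of all genes tested, 19.9% were called higher and 13.4% lower. Ndufs8, which holds iron-sulphur clusters of the arm that leads to coenzyme Q, had 6949 and 7502 in the WT-labelled libraries and 8021 and 8783 in the others. Both knockout-labelled libraries were above both others, by 0.22 on the log2 scale (SE 0.06, limma adjusted p = 0.0377). The call was lost without WT replicate 1, with upper-quartile factors in edgeR (adjusted p = 0.115) and with no filter on low values (adjusted p = 0.0783 by limma), and centring on the median made the fold change -0.08. Ndufv2, of the module that takes up NADH, fell by 0.17 (adjusted p = 0.0216), from 6546 and 6458 to 5830 and 5695. Ndufv1, the flavin-bearing subunit beside it, had 6126 and 6356 against 6302 and 6192, and the groups overlapped. Ndufs1, the largest subunit, had 3622 and 3573 against 3844 and 3898, a log2 fold change of 0.11 that did not pass (adjusted p = 0.146).

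The 28 accessory subunits of complex I all had negative fold changes, of which 6 (21.4%) passed the test. Called lower were 13.4% of all genes and 24.1% of those with a mean of at least 1000. The knockout-labelled libraries lay below both others in 26 of the 28, beside 32.3% of all genes. The median log2 fold change of the 28 was -0.27, or -0.11 without WT replicate 2. All genes with a mean of at least 1000, members included, had medians from -0.48 under 500 nt to -0.05 between 1000 and 2000 nt. How often the groups failed to overlap in genes of like length and level was not counted. Ndufb3, of the distal membrane arm, had 2638 and 2870 in the WT-labelled libraries and 2013 and 2037 in those labelled knockout. It fell by 0.44 on the log2 scale (SE 0.07, limma adjusted p = 0.0032). Ndufa6 fell from 14348 and 17237 to 10914 and 11230, by 0.51 (SE 0.08, adjusted p = 0.0047), or by 0.37 without WT replicate 2. The other accessory subunits that fell were Ndufs6, Ndufa13, Ndufb7 and Ndufa10, by 0.56, 0.49, 0.31 and 0.19. Ndufs6 overlaps Mrpl36 on the opposite strand and Ndufa13 overlaps Yjefn3 on the same one, and the use of strand in counting is not given in the sources used here. Of the 20 nuclear members called over all complexes 12 overlap another annotated gene on either strand, as do 36 of all 81.

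Complex II, succinate dehydrogenase, is made wholly of nuclear genes and also serves the citric acid cycle. Of its 4 members 0 rose and 0 fell by limma at the adjusted threshold, with a median of 0.02 (-0.28 after median centring). Sdha, the flavoprotein that oxidises succinate, had 16637 and 15684 against 16796 and 17482 (log2 fold change 0.09, adjusted p = 0.183). Sdhb, its iron-sulphur partner, had 8988 and 9412 against 9759 and 9419 (0.06, adjusted p = 0.334). The membrane anchors Sdhc and Sdhd had log2 fold changes of -0.09 and -0.02, or -0.03 and 0.02 without WT replicate 2.

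Complex III transfers electrons from coenzyme Q to cytochrome c. Of its 9 nuclear members 3 fell (33.3%), 0 rose and 6 did not pass. Called lower were 13.4% of all genes and 24.1% of those with a mean of at least 1000. Uqcrh, the hinge protein that sits beside cytochrome c1, had 15304 and 14877 in the WT-labelled libraries and 10784 and 11723 in the others. It fell by 0.42 on the log2 scale (SE 0.05, limma adjusted p = 0.0011), and the WT-labelled replicates were close for so short a transcript (547 nt). Uqcrfs1, the Rieske iron-sulphur protein, fell from 12954 and 12599 to 11221 and 10876, by 0.21 (SE 0.04, adjusted p = 0.0072). Cyc1, cytochrome c1 itself, had 7541 and 7585 against 7982 and 8277, so its groups did not overlap in the upward direction (0.10, adjusted p = 0.0996, and -0.20 with median centring). Uqcr10, Uqcr11 and Uqcrq, small accessory subunits, had log2 fold changes of -0.30, -0.26 and -0.09 with WT replicates that lay 0.55, 0.74 and 0.38 apart. Without WT replicate 2 they had -0.02, 0.11 and 0.10.

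Complex IV, cytochrome c oxidase, held the one large change of the respiratory chain. Cox6a2 encodes the heart and muscle form of subunit VIa, whose more widely expressed form is Cox6a1, and the gene is also known as a marker of mouse plasmacytoid dendritic cells. Cox6a2 had 84.5 and 137 in the WT-labelled libraries and 11722 and 11010 in those labelled knockout. Both knockout-labelled libraries were above both others, with means of 111 ± 37.0 and 11366 ± 503 (SD, n = 2 each), a ratio of 103 and a log2 fold change of 6.71 (SE 0.22, limma adjusted p = 7.49e-06). Cox6a1 had 25768 and 31180 against 24934 and 25369 (-0.17, adjusted p = 0.186). Per transcript length, Cox6a2 made up 0.275% and 0.367% of the summed Cox6a signal in the WT-labelled libraries and 28.3% and 26.7% in those labelled knockout.

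The gene lies on chromosome 7 at 128205435 to 128206387 (mm10) and overlaps Itgad, an integrin gene, on the opposite strand. Itgad had 295 and 317 against 1131 and 1066, below Cox6a2 in both knockout-labelled libraries and above it in both WT-labelled libraries. Among the plasmacytoid markers, Siglech, a lectin receptor, had 210 and 194 against 84171 and 84408, and Tcf4, the E protein that specifies the lineage, 478 and 383 against 28153 and 28302. Among 8 muscle genes, the defining Myh1 and Myl1 were at 0 in every library, Ckm had 31.5 and 58.2 against 65.6 and 47.7, and 4 were tested (muscle sums of 407 to 529 and 725 to 745). Of these Tnni2, a fast muscle troponin, rose from 0 and 15.3 to 362 and 454 (log2 fold change 6.65, SE 1.40, limma adjusted p = 0.027), and Actn2, a sarcomeric actinin, fell by 0.70 (adjusted p = 0.0484). The part of muscle genes in the Cox6a2 value was not tested.

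The other nuclear members of complex IV had small differences. The 11 common nuclear subunits all had negative fold changes, and 2 of them (18.2%) passed the test. Called lower were 13.4% of all genes and 24.1% of those with a mean of at least 1000. In all 11 the knockout-labelled libraries lay below both others, beside 32.3% of all genes. That share in genes of like length and level, which also leaned down, was not counted. Cox4i1, the regulatory subunit that binds ATP, had 42960 and 47194 in the WT-labelled libraries and 39430 and 39299 in the others. It fell by 0.19 on the log2 scale (SE 0.05, limma adjusted p = 0.0214). Its gene overlaps Gm20388 on the same strand and Emc8 on the opposite one. Cox5a fell from 17833 and 18630 to 16052 and 16310, by 0.17 (SE 0.04, adjusted p = 0.0138). Cox6b1, Cox7a2, Cox8a and Ndufa4 had log2 fold changes of -0.40, -0.42, -0.22 and -0.18 with adjusted p between 0.0761 and 0.102, and -0.20, -0.21, -0.09 and -0.10 without WT replicate 2. Cox6b2, the testis form of subunit VIb, was low, at 104 and 155 against 86.2 and 102 (-0.43, adjusted p = 0.266). Cox7a2l, which links complexes III and IV into supercomplexes, had 23888 and 23859 in the WT-labelled libraries and 19121 and 19669 in those labelled knockout. It fell by 0.30 (SE 0.03, adjusted p = 0.000791), the smallest adjusted p among the decreases, and by 0.30 too without either WT replicate.

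**Figure D3:**
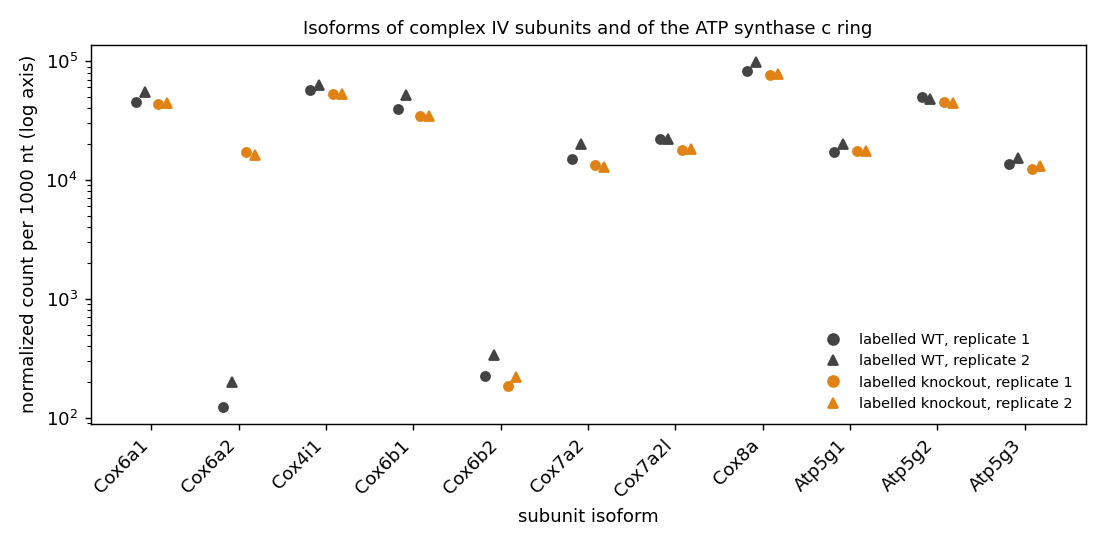
Normalized count per 1000 nt of transcript, on a log axis, of isoforms of complex IV subunits and of the c ring of ATP synthase in each of the 4 libraries. Grey marks are the WT-labelled libraries and orange marks those labelled knockout, with circles for replicate 1 and triangles for replicate 2. Cox6a2 is the one gene drawn whose groups lie far apart, at a ratio of 103.

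Complex V, ATP synthase, makes ATP in its F1 head as protons turn its membrane ring. Of the 19 nuclear members counted with it 4 fell (21.1%), 1 rose (5.26%) and 14 did not pass. Of all genes tested, 13.4% were called lower and 19.9% higher, and of those with a mean of at least 1000, 24.1% and 21.8%. The catalytic beta subunit Atp5b had 47249 and 47436 in the WT-labelled libraries and 49461 and 49311 in the others, groups that did not overlap but a change that did not pass (log2 fold change 0.06, adjusted p = 0.123), and of -0.24 with median centring. Its partner Atp5a1 had a fold change of 0.02. Atp5d, the delta subunit of the F1 stalk, fell by 0.30 (adjusted p = 0.0063), from 31254 and 34631 to 27165 and 26466. In the peripheral stalk, which holds F1 still, Atp5h fell from 15648 and 14830 to 12480 and 12462, by 0.29 (SE 0.04, adjusted p = 0.0022), and Atp5j from 10086 and 11203 to 8134 and 8434, by 0.36 (SE 0.06, adjusted p = 0.0044). Their stalk partners Atp5f1 and Atp5o had fold changes of -0.12 and -0.05 and did not pass. Atp5j overlaps Gabpa on the opposite strand.

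Of the 3 genes for the identical mature c subunit, Atp5g2 fell by 0.14 (adjusted p = 0.0296), from 22175 and 21233 to 19971 and 19431, and Atp5g1 and Atp5g3 had fold changes of -0.09 and -0.20. Atp5g2 held 52.5% and 48.0% of their summed normalized counts in the WT-labelled libraries and 50.9% and 49.6% in the others. The member that rose, Atp5sl, is not a subunit of ATP synthase: RefSeq names the gene Dmac2, and its protein helps to assemble the distal membrane arm of complex I. It had 2162 and 2318 against 3396 and 3138, with both knockout-labelled libraries above both others (log2 fold change 0.54, SE 0.07, limma adjusted p = 0.0016). Atpif1, the inhibitor of ATP synthase, which the patterns do not match, had 5393 and 6817 against 5825 and 5634 (-0.08, adjusted p = 0.594).

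The mitochondrial genome encodes 13 proteins, and all 13 messages were measured. Neighbouring reading frames overlap in places, where a read cannot be assigned to one gene from its sequence alone. The longest overlap, 43 nt on the plus strand at chrM:7927-7969 (mm10), joins mt-Atp8 and mt-Atp6 and takes up 21.1% of mt-Atp8. It is shown from the GENCODE transcripts, with the start codon of mt-Atp6 and the stop codon of mt-Atp8 in capitals.
mt-Atp8 and mt-Atp6: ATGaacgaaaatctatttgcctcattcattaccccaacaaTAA
How reads in the overlap were counted is not known here, so the values of mt-Atp8 and mt-Atp6 below may not be independent.

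Of these 13 messages mt-Co1, mt-Nd4, mt-Nd5 and mt-Cytb rose and 0 fell, although only mt-Co1 kept a positive sign with median centring. The catalytic subunit of complex IV, mt-Co1, had 161270 and 148482 in the WT-labelled libraries and 196458 and 193659 in those labelled knockout, a log2 fold change of 0.33 (SE 0.04, limma adjusted p = 0.00128). With median centring it was 0.03. Of the proton-pumping membrane subunits of complex I, mt-Nd4 had 44164 and 43809 against 52853 and 51541 (0.25, SE 0.03, adjusted p = 0.00102, and -0.05 with median centring), and mt-Nd5 had 19871 and 20509 against 23641 and 23352 (0.22, SE 0.03, adjusted p = 0.0034, and -0.08). In each of these the replicates of a group lay closer together than the groups. Cytochrome b of complex III, mt-Cytb, had 53209 and 53358 against 58171 and 58931 (0.14, SE 0.03, adjusted p = 0.0086, and -0.16).

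The other messages did not pass. In mt-Nd1, mt-Nd4l, mt-Nd6, mt-Atp6, mt-Atp8 and mt-Co2 both knockout-labelled libraries were above both others, beside 36.5% of all genes. Their log2 fold changes were 0.16, 0.18, 0.17, 0.09, 0.15 and 0.05, with adjusted p between 0.0517 and 0.278 by limma. Each of these signs turned with median centring. Messages cut from one precursor are not separate observations. In mt-Co3 the knockout-labelled libraries were below both others, at 33080 and 32592 against 33159 and 37269 (-0.10, adjusted p = 0.226). In mt-Nd2 the groups overlapped, at 12716 and 14549 against 13088 and 12891. The least abundant message was mt-Nd3, with 214 and 440 against 247 and 227, so WT replicate 2 alone was high, and its fold change of -0.37 became 0.15 without that library, as that of mt-Nd2 went from -0.07 to 0.03.

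**Figure D4:**
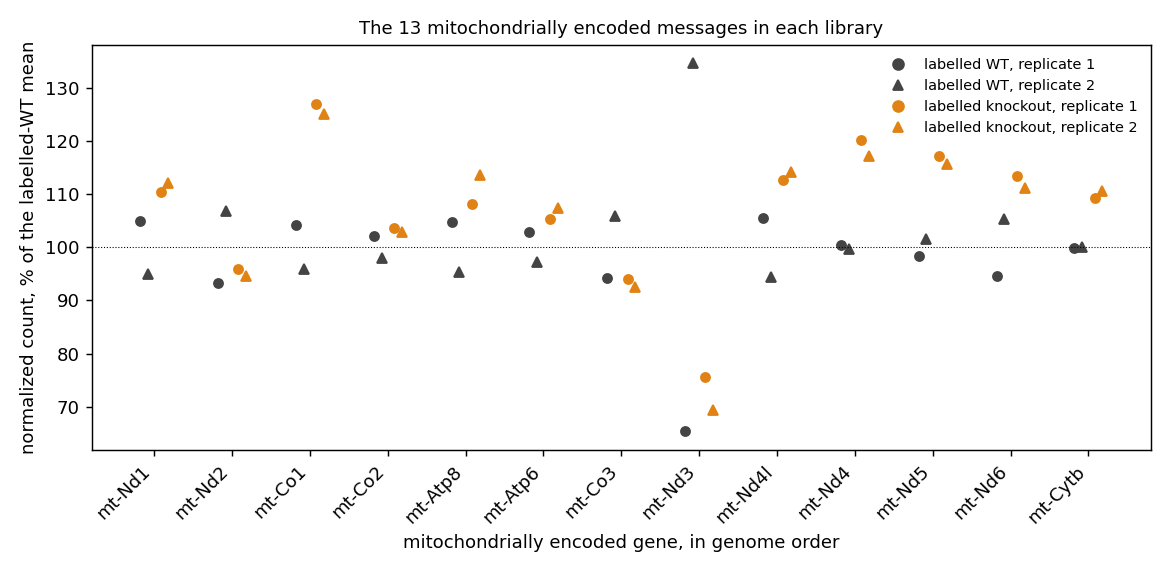
Normalized count of each of the 13 mitochondrially encoded messages in each library, as a percentage of the mean of the WT-labelled libraries, in genome order. The knockout-labelled libraries lie above both WT-labelled libraries in 10 messages, beside 36.5% of all genes, and most of all in mt-Co1. With median centring 9 of these 10 fold changes turn negative. In mt-Nd3 WT replicate 2 stands apart from the other libraries.

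Per 1000 nt of transcript, the mean normalized count of the mitochondrial members over the 4 libraries was highest for mt-Atp6 (182168), then mt-Co2 (120006), mt-Co1 (113247) and mt-Atp8 (78511), and lowest for mt-Nd3 (810). The most abundant nuclear members on that scale were Cox8a (83624), Cox4i1 (56672), Cox6a1 (46958) and Atp5g2 (46944). Within F1, Atp5b stood at 25242 and Atp5a1 at 12476, although their proteins are present in equal number in the complex. Such levels depend on the transcript chosen for each length.

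Reads of the mitochondrial members were 1.03% and 0.973% of all reads in the WT-labelled libraries and 1.17% in each library labelled knockout. Reads of the nuclear members were 1.36% and 1.52% and then 1.32% and 1.33%. The ratio of mitochondrial to nuclear reads was 0.759 and 0.640 in the WT-labelled libraries and 0.887 and 0.882 in those labelled knockout, so the groups did not overlap, and replicate 2 of the former was the lowest. An exact two-sided permutation test of 2 libraries against 2 cannot go below p = 0.333. Unlike the fold changes, this ratio does not depend on how the libraries are scaled.

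Other RNAs of the mitochondrial genome were called in both directions. Of 18 ribosomal and transfer RNAs tested 2 rose and 1 fell, beside 33.4% of all genes called in either direction. Their median log2 fold change was 0.03. The libraries were made from polyadenylated RNA, so how far these values give the levels of such RNAs is not known here. The small ribosomal RNA mt-Rnr1 had 39843 and 44965 in the WT-labelled libraries and 26845 and 28900 in the others, and fell by 0.60 (SE 0.06, limma adjusted p = 0.000754). The large one, mt-Rnr2, had 89796 and 126368 against 61429 and 65782 (-0.74, adjusted p = 0.0851), with WT replicate 2 the highest. The transfer RNAs that rose were mt-Tp, from 195 and 208 to 375 and 347, and mt-Ts1, from 2868 and 3069 to 3535 and 3364, by 0.22, which became -0.08 with median centring.

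Genes that serve the chain were counted by list from the test over all genes, and no list was itself tested. Of all genes tested, 19.9% were called higher and 13.4% lower. Of 16 genes of mitochondrial DNA maintenance and transcription 1 rose (Top1mt, a mitochondrial topoisomerase, from 243 and 290 to 516 and 536) and 1 fell (Polg, the mitochondrial DNA polymerase, by 0.37), with a median of 0.02. Of 16 genes of mitochondrial RNA processing 2 rose, Fastk and Tbrg4, by 0.38 and 0.40 (0.08 and 0.10 with median centring), and 1 fell, Hsd17b10, by 0.22, with a median of 0.04. Of 12 nuclear regulators of mitochondrial biogenesis Ppargc1a alone rose, from 6.11 and 12.3 to 78.4 and 87.6, Myc alone fell, by 0.39, and the median was -0.05. Nrf1 and Gabpa, whose factors bind promoters of respiratory genes, had fold changes of -0.09 and -0.06 that did not pass.

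Assembly factors were called in both directions, beside 19.9% of all genes called higher and 13.4% called lower. Of 23 tested for complex IV, the longest of these lists, 7 fell and 3 rose, with a median of -0.18, of 17 for complex I 1 fell and 2 rose (median -0.02), of 6 for complex III 2 fell and 1 rose (median 0.13), and of 4 each for complexes II and V 0 and 1 fell. Cox20, a chaperone of mt-Co2, had 1103 and 1146 in the WT-labelled libraries and 510 and 555 in the others, with a log2 fold change of -1.08 (SE 0.10, limma adjusted p = 0.000336). Surf1, whose loss causes Leigh syndrome in humans, fell by 0.42, from 4398 and 4180 to 3161 and 3237. Of those that rose, Cox15, of heme A synthesis, did so by 0.34 and Coa5 by 0.29, or 0.04 and -0.01 with median centring. Sco2, a low gene, rose from 42.7 and 36.8 to 138 and 80.8, by 1.39 (limma adjusted p = 0.0214), or 1.09 with median centring. In complex I, Foxred1 and Ndufaf6 rose by 0.35 and 0.46 (0.05 and 0.16 with median centring) and Tmem126b fell by 0.48. In complex III Uqcc2 fell by 0.49 and Ttc19 rose by 0.44.

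Electron carriers and other donors moved in both directions, beside 19.9% of all genes called higher and 13.4% called lower. Of 15 genes of coenzyme Q synthesis and cytochrome c 3 rose, Coq4 by 0.52, Coq2 by 0.38 and Coq8b by 0.33 (0.22, 0.08 and 0.03 with median centring), and Coq10b fell by 0.39. Of 8 other donors of electrons to coenzyme Q 2 rose strongly and 1 fell. Prodh, proline dehydrogenase, had 17.3 and 7.15 against 814 and 793, and Chdh, choline dehydrogenase, 87.5 and 65.4 against 2529 and 2414, so that the groups lay far apart in both. Gpd2, the mitochondrial glycerol phosphate dehydrogenase, fell by 0.32, from 4753 and 4619 to 3708 and 3818. Among 7 tested carriers and channels of the inner and outer membrane Ucp2 and Vdac1 rose, by 0.23 and 0.36 (-0.07 and 0.06 with median centring), and 0 fell.

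Promoters of the nuclear members were read from RefSeq (GRCm38.p6, the assembly of mm10) as 300 bases, from 250 before to 50 after the start, and 66 of the 81 had an entry. Cox6a2, Cox4i1 and Uqcrc2, which were called, had no entry. The 10-base NRF1 core stood in 5 of the 66 (7.58%) and in 1.99% of the 11583 promoters of genes tested. The ETS core CCGGAAG, bound by GABP, stood in 15 (22.7%) beside 17.4%, and the YY1 core AAGATGG in 11 (16.7%) beside 7.31%. The GC box GGGCGG stood in fewer members, 27 (40.9%) beside 61.2%, and the TATA box TATAAA in 5 (7.58%) beside 7.98%. None of these differences was tested. Both strands were searched, and the ETS-IRF composite, a known site of IRF8 with PU.1, stood in 0 of the 66 beside 2.41% of all. The interferon response element, which can share bases with that composite, stood in 2 (Ndufa9 and Ndufs3, 3.03%) beside 3.39%. Among the 15 called lower that had an entry, the NRF1, ETS and YY1 cores stood in 1, 3 and 1. These are matches of letters and not sites of binding.

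The promoters of the 2 members with the smallest adjusted p in each direction that had an entry are shown to let their letters be compared, with ETS and YY1 cores on either strand in capitals. Cox7a2l (minus strand, chr17:83514284-83514583) and Uqcrh (minus strand, chr4:116075021-116075320) fell, and Atp5sl (Dmac2, plus strand, chr7:25619243-25619542) and Ndufs8 (minus strand, chr19:3912725-3913024) rose.
Cox7a2l: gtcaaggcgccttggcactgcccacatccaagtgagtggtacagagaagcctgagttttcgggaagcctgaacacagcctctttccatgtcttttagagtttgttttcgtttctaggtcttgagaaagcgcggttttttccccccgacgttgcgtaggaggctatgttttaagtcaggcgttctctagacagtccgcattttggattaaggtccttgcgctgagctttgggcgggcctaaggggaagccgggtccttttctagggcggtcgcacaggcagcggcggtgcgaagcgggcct
Uqcrh: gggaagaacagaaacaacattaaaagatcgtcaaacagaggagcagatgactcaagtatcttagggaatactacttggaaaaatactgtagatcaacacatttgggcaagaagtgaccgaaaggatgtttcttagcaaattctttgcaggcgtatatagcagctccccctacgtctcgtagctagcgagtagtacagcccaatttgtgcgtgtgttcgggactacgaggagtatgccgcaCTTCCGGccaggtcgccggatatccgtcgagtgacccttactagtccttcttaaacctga
Atp5sl: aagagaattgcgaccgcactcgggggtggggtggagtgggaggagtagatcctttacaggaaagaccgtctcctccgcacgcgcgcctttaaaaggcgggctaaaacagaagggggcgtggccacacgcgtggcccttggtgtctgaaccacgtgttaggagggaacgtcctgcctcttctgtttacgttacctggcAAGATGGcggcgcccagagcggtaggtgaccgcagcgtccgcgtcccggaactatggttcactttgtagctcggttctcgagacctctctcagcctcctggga
Ndufs8: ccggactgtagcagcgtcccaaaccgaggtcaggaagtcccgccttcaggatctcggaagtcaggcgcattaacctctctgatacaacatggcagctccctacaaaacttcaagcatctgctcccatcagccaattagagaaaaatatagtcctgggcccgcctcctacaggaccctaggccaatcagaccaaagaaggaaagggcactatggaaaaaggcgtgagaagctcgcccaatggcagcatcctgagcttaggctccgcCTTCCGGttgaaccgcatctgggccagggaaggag
Cox7a2l had none of the 3 cores, Uqcrh and Ndufs8 had 1 ETS core each, and Atp5sl had 1 YY1 core.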

How the data were processed

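RNA-seq libraries of 2 groups (2 WT, 2 knockout by label) were analysed from the authors' deposited table of normalized counts, a scaled signal per gene in which each library's counts are divided by a size factor. The submitters' processing notes name HISAT2 2.2.1, Trim Galore 0.4.4, DESeq2 and StringTie 2.1.4, and the mm10 build. The strand setting of the counting is not known here. The deposited log2 fold changes, test scores, p-values and adjusted p-values of the authors were used only for their calls. Whole numbers were recovered within 0.01 for 100% of values, with totals of 58899365 to 59724952 per library over the genes in the table. They are called reads here, and whether they are counted reads or estimates is not known. The edgeR test on them called 3691 genes higher and 2652 lower.

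The test was limma 3.58.1 (R 4.3.3; trend and robust variance) on log2(value + 1), which understates the change of low genes, over 18378 genes with at least 10 in at least 2 libraries, with Benjamini-Hochberg adjustment and a threshold of 0.05. The simulated counts on which it was also run held few changed genes and no dependence on length. They therefore do not show how the test behaves on these data. Alternatives were edgeR 4.0.16, DESeq2 1.42.0, median centring, pseudocounts of 0.1 and 10, other filters, a replicate block and leaving out each library. Transcript lengths and coordinates came from GENCODE M21 and promoters from RefSeq GRCm38.p6. Of the member symbols 92 matched GENCODE once, and Atp5o and Atp5sl were resolved through RefSeq.

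Genes named with values are Irf8, all mitochondrial members, the 2 nuclear members per complex and direction with the smallest adjusted p, core subunits, isoforms and the 2 leading genes per direction of each other list. Further members and genes (among them Ndufa3, Atp5k, Ndufv2, Atp5d, Itgad, Siglech, Tcf4, Sco2, Nrf1 and Gabpa) were named after their values were seen. The members and lists were chosen with earlier results of these data known.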

Additional observations from a re-analysis of the deposited data

How the results depend on the processing

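Median centring moved the most values. It called 2389 genes higher and 7210 lower among all genes (3662 and 2469 as reported), and 2 members higher and 73 lower (7 and 17 as reported). The nuclear median became -0.49 and the mitochondrial median -0.15. Signs turned in Atp5b (-0.24), Cyc1 (-0.20), Ndufs1 (-0.19), Ndufs8 (-0.083), Ndufv1 (-0.30), Sdha (-0.22), Sdhb (-0.24), mt-Atp6 (-0.21), mt-Atp8 (-0.15), mt-Co2 (-0.25), mt-Cytb (-0.16), mt-Nd1 (-0.15), mt-Nd4 (-0.054), mt-Nd4l (-0.12), mt-Nd5 (-0.081) and mt-Nd6 (-0.13). Upper-quartile factors in edgeR called 38 members lower and turned Atp5b (-0.019), Ndufv1 (-0.079), Sdhb (-0.0205) and mt-Co2 (-0.035). Ndufv1 was -0.0079 with DESeq2 and -0.0065 with TMM factors. A minimum value of 50 called 11 members higher. With edgeR and TMM factors, and with DESeq2, 8 members were higher and 24 lower, and all 24 reported calls were kept. Leaving out each library gave 1309 to 4137 genes higher and 630 to 2759 lower, and 1 to 13 members higher and 2 to 61 lower; Atp5g1 ranged from -0.20 to 0.0245, Ndufv1 from -0.025 to 0.028, mt-Nd2 from -0.16 to 0.031 and mt-Nd3 from -0.89 to 0.15. The lone library of a group was then assumed to vary like the other group. The cause of these shifts was not tested.

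Replicate numbers did not pair the libraries (Pearson correlation 0.017 across 18378 genes). With a replicate block 7 members were higher and 26 lower. With 2 libraries a group the spread is poorly known, and counts at this depth limit only the lowest members.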
